A study of Rattus norvegicus with 4 samples.

Results

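Between the dividing precursor and the myelinating oligodendrocyte (OL) lies a short premyelinating stage, and 8 genes that mark or act in it were followed here after silencing of Gpr17, a receptor whose own expression peaks at that stage. The genes were Bcas1, Enpp6, Itpr2, Fyn, Tns3, Nfasc, Rras2 and Bmp4, taken by name, with no measured value in the rule. All 8 had a probe on the array, 9 probes in all, out of 16581 genes with a probe. Rat oligodendrocyte precursor cells (OPCs) from cortices of postnatal day 2 were expanded for 3 days with bFGF and PDGF and transfected, with Lipofectamine RNAiMax, with 50 nM of a siRNA against GPR17 (siGPR17) or of a negative control siRNA (siNEG). RNA was taken 48 h later, at day 2 of maturation, and each of the 4 samples, 2 siNEG and 2 siGPR17, was hybridised to its own one-colour array. A silenced culture still makes some of the receptor, and RNA of all cells in the dish was measured together.

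During maturation an OPC leaves the cell cycle, extends a branched arbor, contacts axons and only then wraps them with compact myelin. The premyelinating cell carries out the middle steps: it needs adhesion and cytoskeletal proteins to grow and attach processes, kinases and small GTPases to pass on signals from the axon and the matrix, and calcium release from internal stores. Many cells die at this stage, and secreted factors such as bone morphogenetic proteins (BMPs) can hold cells back from it. GPR17, a G protein-coupled receptor, marks the passage through the stage and is lost again before myelin is made.

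Values are array signals, scaled so that the 75th percentile of every array is the same, and they can be compared between arrays for 1 probe but not between probes. No spot was saturated. Of 45565 probes with a value on every array, 27996 were tested with limma, those read well above background on 2 or more of the 4 arrays, with Benjamini-Hochberg adjustment over all of them. They covered 11642 named genes. A gene was called where its fold was at least 1.5 and its adjusted p was under 0.07, the thresholds that the study's methods give, and 0 genes (0% of 11642) passed both, against 1882 (16.2%) with an unadjusted p under 0.05. All arrays came from 1 slide, the siNEG arrays from one column of it and the siGPR17 arrays from another, so slide column and siRNA cannot be told apart. The labels call the samples independent without saying whether the cultures were separate, and the p-values measure the spread between these samples only.

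Gpr17 itself was read at signals of 1107 and 1113 on the siNEG arrays and of 652 and 639 on the siGPR17 arrays. The silenced samples were thus 1.72-fold lower (log2 change -0.78, SE 0.085, 95% interval -1.01 to -0.55, n = 2 per group), with an adjusted p of 0.209 from limma. Both siGPR17 arrays lay below both siNEG arrays. In RNA of a whole culture, fewer cells of a type and less RNA per cell cannot be told apart, and this holds for every gene below.

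None of the 8 premyelinating genes passed the thresholds, and their signals did not move as a block: Rras2 was higher and Tns3 lower in the silenced samples, each by a little under 1.5-fold, and the other 6 lay within 0.090 of 0 on the log2 scale. All 8 were well above background on all 4 arrays. Unadjusted p-values under 0.05 were found for 2 of the 8, Rras2 and Tns3, 1 higher and 1 lower, against 16.2% of all genes (7.44% higher and 8.73% lower). By the methods' t-test the same 2 genes had an unadjusted p under 0.05, against 14.4% of all genes. A fold of 1.5 was reached by 0 of the 8, against 5.05% of all genes (2.42% higher and 2.63% lower). The 2 groups of arrays did not overlap for 4 of the 8 genes, 3 of them higher and 1 lower after silencing, where 53.4% of all genes did not overlap (28.1% higher and 25.3% lower). That share of the 8 genes is close to the share of all genes. The median log2 change was 0.073 over the 8 genes and 0.010 over all 11642 genes, and the median absolute change was 0.088 and 0.14.

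**Figure D1:**
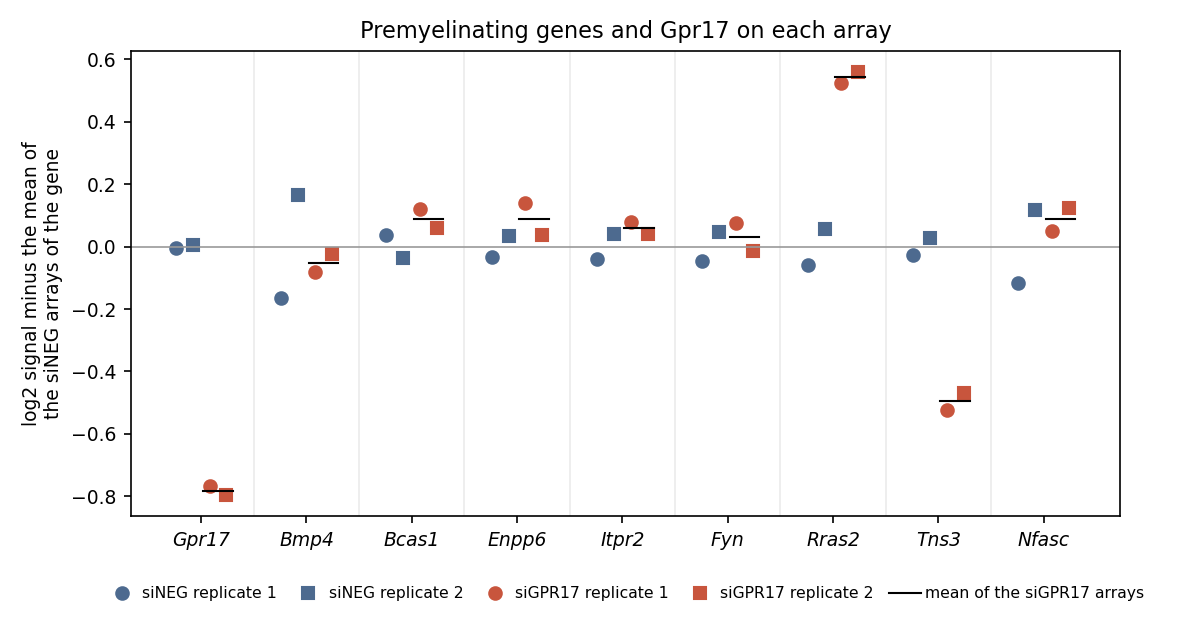
Signal of Gpr17 and the 8 premyelinating genes on each array, as log2 relative to the mean of the siNEG arrays of that gene, 1 point per array and a bar at the mean of the siGPR17 arrays. The siGPR17 points of Rras2 lie above and those of Gpr17 and Tns3 below the siNEG points with a wide gap, while the siNEG points of Bmp4 lie 0.33 apart and enclose both siGPR17 points.

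The gene with the largest difference was Rras2, which encodes a small GTPase of the Ras family, also called TC21, that passes growth factor signals on to PI3-kinase and ERK. Its signal was 5834 and 6321 on the siNEG arrays and 8734 and 8950 on the siGPR17 arrays. Both silenced samples were above both controls, and the gap between the groups was larger than the difference within either. The siNEG mean was 6078 ± 344 and the siGPR17 mean 8842 ± 153 (SD, n = 2 each), a fold of 1.46 (log2 change 0.54, SE 0.094, 95% interval 0.29 to 0.80), with a limma adjusted p of 0.209. The probe stands on 2 spots of every array, which differed by at most 0.15 on the log2 scale within an array, so that all siGPR17 spots were brighter than all siNEG spots. A larger absolute change was measured for 6.12% of the tested genes. The adjusted p was 0.0316 when limma's trend and robust options were used and 0.0416 after normexp background correction, with a fold that stayed under 1.5 in both cases, where 1.58% and 0.962% of all genes passed both thresholds. Without siNEG replicate 2 its log2 change was 0.60, past a fold of 1.5 but not past the adjusted p.

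Other Ras genes on the array were read beside Rras2 as its relatives. Nras had a log2 change of 0.13, Hras of 0.023 and Rras of 0.030, and Mras, like Rras2 a member of the R-Ras branch, of -0.21. The groups overlapped for Hras and Rras, whose signs also turned when single arrays were left out. The difference between Rras2 and these genes was not tested. Over the 4 arrays, the genes whose profile lay nearest to that of Rras2 among the 11642 were Sfxn4, Vat1 and Samd5, at Euclidean distances of 0.035, 0.043 and 0.046 between log2 values centred on each gene's mean. Their log2 changes were 0.56, 0.50 and 0.50.

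Tns3 encodes tensin 3, an adaptor of focal adhesions that ties integrins to actin and marks immature OLs. Its signal was 101686 and 105427 on the siNEG arrays and 72078 and 74871 on the siGPR17 arrays. Both silenced samples were below both controls, and replicates differed by only about 0.05 on the log2 scale (0.052 in siNEG and 0.055 in siGPR17). The siNEG mean was 103557 ± 2646 and the siGPR17 mean 73474 ± 1975 (SD, n = 2 each), 1.41-fold lower in the silenced samples (log2 change -0.50, SE 0.088, 95% interval -0.74 to -0.25), with a limma adjusted p of 0.209. A larger absolute change was measured for 7.83% of the tested genes. With limma's trend and robust options the adjusted p was 0.0387 and after normexp it was 0.0442, again at a fold under 1.5. Without siGPR17 replicate 1 its log2 change was -0.47 and it no longer had an unadjusted p under 0.05. Its relatives could not be set beside it, since Tns1 and Tns4 were not above background on enough arrays and Tns2 was not matched to a probe.

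**Figure D2:**
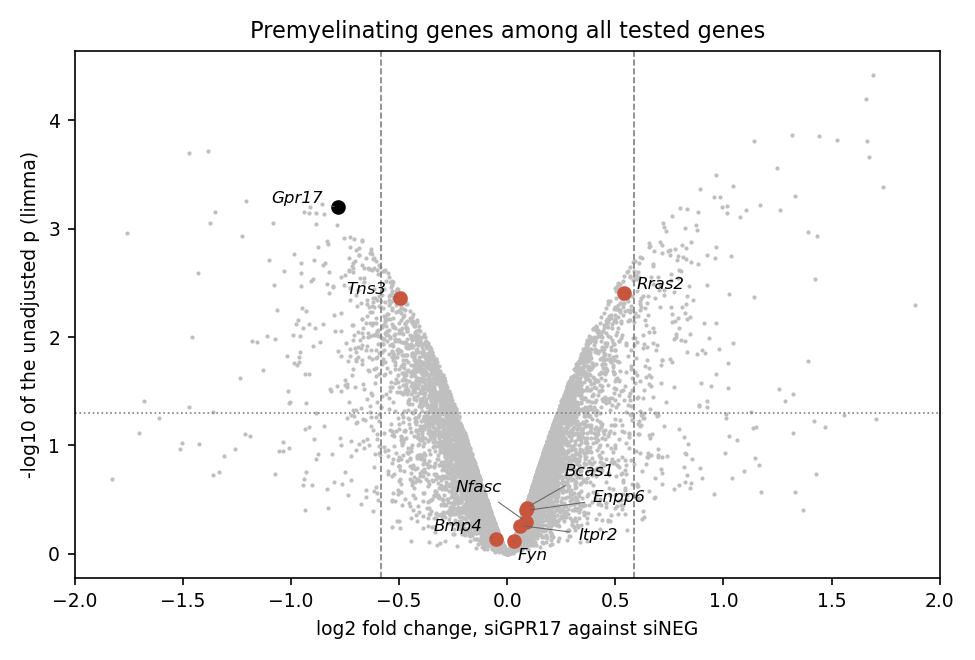
Log2 fold change of siGPR17 against siNEG (horizontal axis, cut at 2 either way, which leaves out 9 genes) and −log10 of the unadjusted limma p (vertical axis) for the 11642 tested genes, 1 point each, with dashed lines at a fold of 1.5. Rras2 and Tns3 stand just inside the dashed lines, and the other premyelinating genes lie near the foot of the plot.

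Bcas1 encodes a cytoplasmic protein by which premyelinating and early myelinating OLs are recognised in tissue. Signals were 64263 and 61032 on the siNEG arrays and 68122 and 65220 on the siGPR17 arrays. Both silenced samples were above both controls, but the higher siNEG array and the lower siGPR17 array were closer to each other than the replicates of either group were. The log2 change was 0.090 (SE 0.090, 95% interval -0.16 to 0.34) with a limma adjusted p of 0.642. Its probe also stands on 2 spots per array, which differed by at most 0.055 on the log2 scale.

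Enpp6 encodes a choline-specific phosphodiesterase of the cell surface that is used as a marker of newly formed OLs. It had the dimmest probe of the 8 genes, with a spot 4.62 to 5.50 times its local background. Signals were 227 and 239 on the siNEG arrays and 256 and 239 on the siGPR17 arrays, so that the groups were separated only by the step from 238.6 to 239.2. The log2 change was 0.089 (SE 0.094, 95% interval -0.17 to 0.35; limma adjusted p = 0.658). Among the other genes of the Enpp family, Enpp1, which makes pyrophosphate from nucleotides outside the cell, was read at 257 and 274 in siNEG and at 171 and 159 in siGPR17, a log2 change of -0.69 (SE 0.096) with a limma adjusted p of 0.209. Enpp5 and Enpp4 were also lower on both siGPR17 arrays, with log2 changes of -0.35 and -0.25. Enpp2, the autotaxin that OLs secrete, overlapped between the groups (log2 change -0.039, and above 0 when arrays were scaled on the spike-in controls or siNEG replicate 1 was left out).

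Itpr2 encodes the type 2 receptor for inositol trisphosphate (IP3), a channel that lets calcium out of the endoplasmic reticulum. Signals were 1944 and 2057 on the siNEG arrays and 2110 and 2055 on the siGPR17 arrays. The second siNEG array lay between the silenced ones, so the groups overlapped, and the log2 change was 0.059 (SE 0.090, 95% interval -0.19 to 0.30; limma adjusted p = 0.768). Of 15 other genes of IP3 signalling and store calcium, 12 were tested and 0 passed the thresholds, with unadjusted p-values under 0.05 for 2 that were higher and 1 that was lower (7.44% and 8.73% of all genes). The highest was Itpka, a kinase that phosphorylates IP3 (log2 change 0.73, but 0.44 without siNEG replicate 1), and the lowest Stim2, a calcium sensor of the reticulum (log2 change -0.44), while Plcb3, a phospholipase that makes IP3, had a log2 change of 0.34. The median over the 12 was 0.011. Itpr1, the type 1 receptor, had a log2 change of -0.10, which was above 0 with spike-in scaling, and Itpr3 was not above background on enough arrays.

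Fyn encodes a tyrosine kinase of the Src family that relays contact with axons and laminin to the cytoskeleton and to local translation of Mbp mRNA. Signals were 8056 and 8585 on the siNEG arrays and 8762 and 8234 on the siGPR17 arrays. The groups overlapped, and the log2 change was the smallest of the 8 (0.030, SE 0.095, 95% interval -0.23 to 0.29; limma adjusted p = 0.891). Its sign turned when single arrays were left out, to -0.015 without siNEG replicate 1 at the lowest. All 14 genes listed around Fyn, its integrin and contactin partners, its regulators and its substrates, were tested, and 0 passed the thresholds. An unadjusted limma p under 0.05 was found for 0 of them, against 16.2% of all genes. Without overlap, 3 were higher and 3 lower, against 28.1% and 25.3% of all genes. The median log2 change was -0.023. The extremes were Itga6, a laminin-binding integrin chain (log2 change 0.31, but 0.13 without siNEG replicate 1), and Bcar1, a docking protein also called p130Cas (log2 change -0.29).

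Among other kinases of the Src family, Lyn was read at 289 and 368 on the siNEG arrays and at 237 and 232 on the siGPR17 arrays. Both silenced samples were below both controls (log2 change -0.47, SE 0.15, limma adjusted p = 0.265). Src (0.13) and Yes1 (-0.014, above 0 with spike-in scaling and after normexp) overlapped. Summed signals of the 8 tested of 10 microglia markers were 1873 to 3437 in siNEG and 2007 to 2498 in siGPR17. Such a sum follows its brightest probes, here mostly Cx3cr1 (2512 and 1241 in siNEG, 1338 and 1884 in siGPR17). Means were lower for all 8 markers, as for Lyn (4 of the 8 above 0 with spike-in scaling). Aif1 (log2 change -0.56) and P2ry12 (-0.32), 2 of the 8, were lower on both silenced arrays with an unadjusted limma p under 0.05. Of all genes, 25.3% were lower without overlap and 8.73% were lower with such a p. The part of microglia in the value of Lyn was not tested.

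Nfasc encodes neurofascin, an adhesion protein of the L1 family whose glial form holds the edge of the myelin sheath to the axon and whose neuronal form sits at nodes. Its brighter probe was read at 5511 and 6473 on the siNEG arrays and at 6180 and 6513 on the siGPR17 arrays. The siNEG arrays alone spanned most of this range, the groups overlapped, and the log2 change was 0.087 (SE 0.12, 95% interval -0.24 to 0.41; limma adjusted p = 0.738). The dimmer probe, at 6.18 to 7.94 times its local background, gave 357 and 368 in siNEG and 305 and 338 in siGPR17. There both silenced arrays were the lower ones, with a log2 change of -0.17 (SE 0.10, 95% interval -0.45 to 0.10) and a limma adjusted p of 0.438. The 2 probes are listed under the same transcript and disagree in sign, with -0.044 for their mean, and no isoform could be assigned to either. Without siNEG replicate 1 the brighter probe came to -0.029.

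Of 12 genes around neurofascin at the paranode and the node, 8 were tested and 0 passed the thresholds. None of the 8 overlapped between groups, 4 being higher and 4 lower (53.4% of all genes did not overlap), and the median log2 change was -0.028. The highest was Cntn2, a contactin of the juxtaparanode (log2 change 0.44, but 0.22 without siNEG replicate 2), the lowest Gldn, gliomedin (log2 change -0.43, but -0.078 after normexp), and Ank3, the ankyrin that anchors neurofascin at the node, had a log2 change of 0.34 with an unadjusted p under 0.05. L1cam, the relative of Nfasc that was tested, had a log2 change of 0.091 and overlapped, with a sign that turned when single arrays were left out. Neurons express several of these genes, and summed signals of the 9 tested of 10 neuronal markers were 7556 to 8969 in siNEG and 7071 to 7309 in siGPR17. Their part in the values of Nfasc was not tested.

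Bmp4 encodes a secreted BMP that OL lineage cells make themselves and that holds back their differentiation. Signals were 24939 and 31372 on the siNEG arrays and 26439 and 27522 on the siGPR17 arrays. Both silenced samples lay between the controls, which were 0.33 apart on the log2 scale, the widest spread among the 8 genes. The log2 change was -0.052 (SE 0.14, 95% interval -0.45 to 0.34; limma adjusted p = 0.876), and its sign turned with the siNEG array that was left out, from -0.22 without siNEG replicate 1 to 0.11 without siNEG replicate 2. It was 0.14 with spike-in scaling.

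The rest of the BMP pathway was described by its roles. Of 27 listed genes besides Bmp4, 21 were tested, 0 passed the thresholds, and the median log2 change was -0.069. Without overlap, 5 were higher and 7 lower (28.1% and 25.3% of all genes), and 9 overlapped. Unadjusted limma p-values under 0.05 were found for 1 that was higher and 2 that were lower (7.44% and 8.73% of all genes). Among the ligands Bmp2, the closest relative of Bmp4, was read at 252 and 245 in siNEG and at 294 and 325 in siGPR17, a log2 change of 0.31 (limma adjusted p = 0.267). Among the receptors Acvr1, a type I receptor, was read at 43.3 and 47.8 in siNEG and at 23.4 and 24.9 in siGPR17 (log2 change -0.91, SE 0.10, limma adjusted p = 0.209), and Bmpr2, the type II receptor, at 778 and 772 in siNEG and at 586 and 575 in siGPR17 (log2 change -0.42, SE 0.085, limma adjusted p = 0.211). Both receptors were lower on both silenced arrays, and the change of the dim Acvr1 probe was -0.29 after normexp and that of Bmpr2 -0.22 with spike-in scaling. The groups overlapped for 4 of the 6 tested receptors, and 2 of the 6 had a higher mean. The highest was Bmpr1b (log2 change 0.21, but -0.17 without siNEG replicate 1).

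Downstream of the receptors, Smad1, a transducer that enters the nucleus once phosphorylated, had a log2 change of -0.21. For Smad9 both siNEG readings, 17.9 and 18.2, were not well above background. The silenced samples were on average 1.43-fold higher (log2 change 0.52, SE 0.30), with a limma adjusted p of 0.443. That fold rests on siGPR17 replicate 1, read at 34.5 against 19.4 on the other silenced array, and without it the log2 change was 0.10. Among the inhibitors the extremes were Smurf1, a ubiquitin ligase that removes receptors and Smads (log2 change 0.25), and Nog, noggin, which binds BMPs outside the cell (log2 change -0.45, from -0.75 without siNEG replicate 1 to -0.15 without siNEG replicate 2). The target genes that report BMP signalling did not share a sign. Id2 had a log2 change of 0.16 and was higher on both silenced arrays. Id4 had one of -0.18 and was lower on both, while Id1 (-0.055) overlapped. Id1 and Id4 were above 0 with spike-in scaling. Id3 was not above background on enough arrays. The difference between Bmp4 and any of these genes was not tested.

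For the 6 genes other than Rras2 and Tns3, log2 changes ran from -0.052 to 0.090 and limma adjusted p-values from 0.642 to 0.891. In the scaling reported here, all of their 95% intervals lay between -0.45 and 0.41, inside the log2 fold threshold of 0.58 either way. Under spike-in scaling their log2 changes ran from 0.14 (Bmp4) to 0.28 (Bcas1), and whether the intervals stayed inside was not checked. With 2 samples per group the intervals leave room for smaller differences in either direction.

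The 8 genes were then set beside the stages on either side of them. Another 18 genes of newly formed OLs were listed, of which 14 were tested and 0 passed the thresholds, with a median log2 change of -0.096. Lower means were found for 10 of the 14, 7 of them above 0 with spike-in scaling. The groups did not overlap for 7, 2 of them higher and 5 lower, where 53.4% of all genes did not overlap, and unadjusted p-values were under 0.05 for 4, 2 higher and 2 lower, where 16.2% of all genes had one. Cnksr3, a scaffold protein, was read at 158 and 144 in siNEG and at 287 and 296 in siGPR17 (log2 change 0.95, SE 0.098, limma adjusted p = 0.209), and Cemip2, a transmembrane protein of the cell surface, had a log2 change of 0.56. Neu4, a sialidase, was read at 1123 and 1261 in siNEG and at 819 and 738 in siGPR17 (log2 change -0.61, SE 0.12, limma adjusted p = 0.210), and Strn, striatin, had a log2 change of -0.42. As with Rras2 and Tns3, the wider differences in this list ran in both directions.

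**Figure D3:**
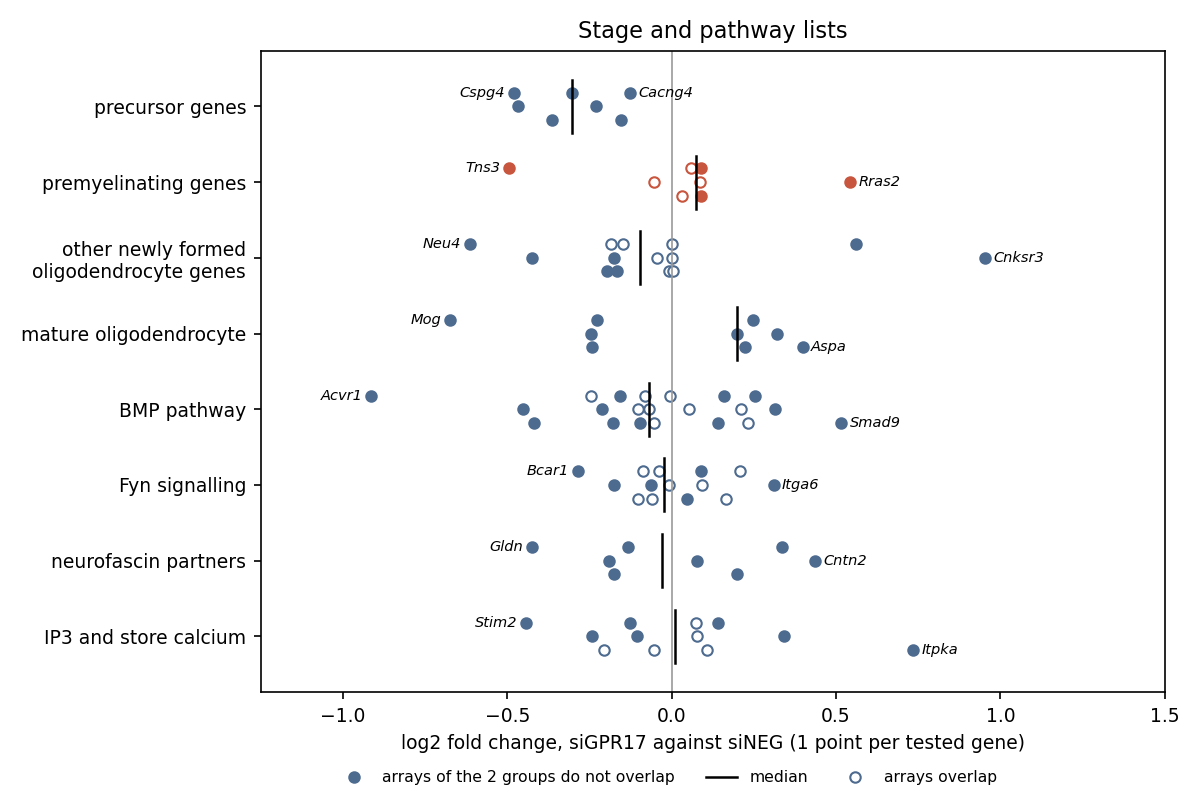
Log2 fold change of siGPR17 against siNEG, 1 point per tested gene, for the 8 premyelinating genes (red) and for stage and pathway lists (blue), with a black line at each list's median, filled points where the groups do not overlap and the highest and lowest gene named. The 7 precursor genes lie below 0 (2 of them above it with spike-in scaling) and the other lists lie on both sides of it, and the point of Smad9 rests on a probe that was not well above background in siNEG.

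Precursor markers were lower on both siGPR17 arrays for 7 of 7 tested genes of 8 listed (25.3% of all genes were lower without overlap), from -0.48 for Cspg4, the proteoglycan NG2, to -0.13 for Cacng4, with a median of -0.30, although 2 of them (Cacng4 and Ptprz1) were above 0 with spike-in scaling. Mature markers were split. Of 9 tested of 13 listed, 5 were higher and 4 lower without overlap (28.1% and 25.3% of all genes). Their median was 0.20, with extremes at 0.40 for Aspa and -0.67 for Mog. Mbp, the major myelin protein, had a log2 change of 0.32. No gene of either list passed the thresholds, and the difference between these lists and the premyelinating genes was not tested.

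Markers of other cells that a cortical culture can hold were read on the same arrays. Summed signals of 6 tested of 7 astrocyte markers were 852 to 1025 in siNEG and 753 to 809 in siGPR17, but the list was split: 3 of the 6 had a higher mean and 3 a lower one, with a median log2 change of -0.014. The lowest were Aqp4, a water channel (log2 change -1.35, and -0.84 after normexp), and Gfap, the astrocyte filament protein (-0.61), and the highest was Gja1, a connexin (0.33). Those of 3 tested of 6 endothelial markers were 337 to 354 in siNEG and 507 to 508 in siGPR17, with Pecam1, Cldn5 and Flt1 not above background on enough arrays. Those of 3 tested of 6 fibroblast and mural markers were 346 to 460 in siNEG and 467 to 468 in siGPR17, with Pdgfrb, Rgs5 and Dcn below that limit. Endothelial and fibroblast sums were higher in both silenced samples, as Rras2 was. Most of the endothelial sum came from 1 gene, Kdr, read at 202 and 233 in siNEG and at 354 and 340 in siGPR17. All 3 tested endothelial genes were higher on both silenced arrays, against 28.1% of all genes. The fibroblast sums were separated only by the step from 460 to 467, and 2 of the 3 genes overlapped. Neuronal and astrocyte sums were lower, as Tns3 and the precursor markers were, and 4 of the 9 neuronal markers were above 0 with spike-in scaling. Their part in the result was not tested.

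**Figure D4:**
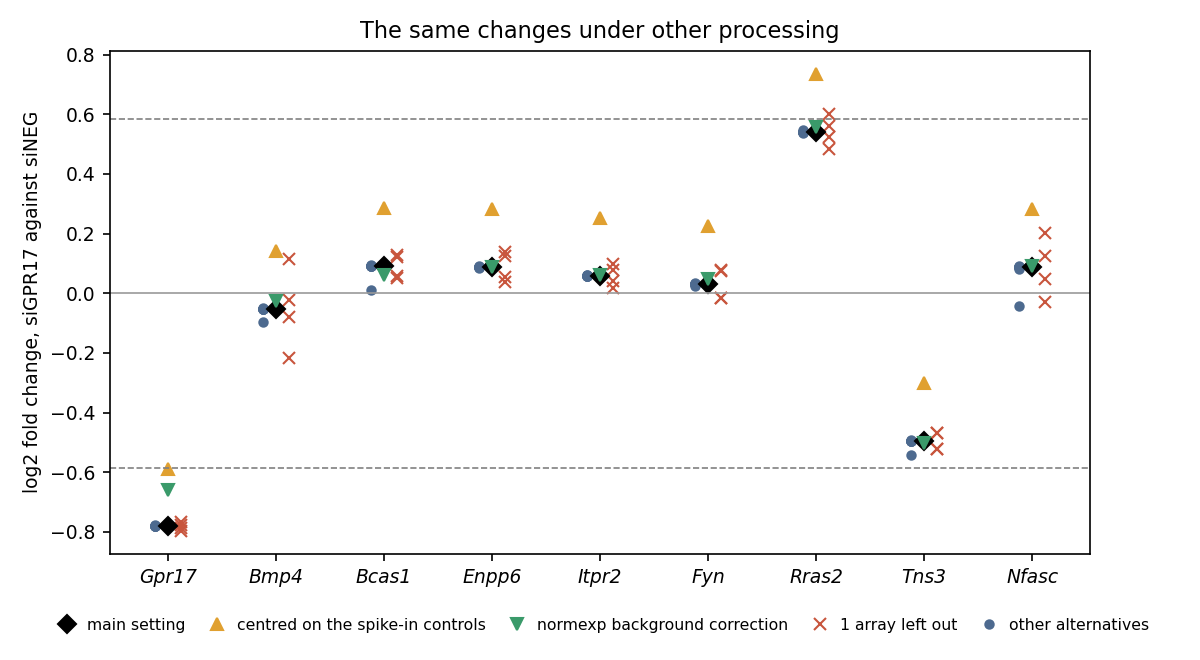
Log2 fold change of siGPR17 against siNEG for Gpr17 and each of the 8 genes under the setting reported here (black diamonds) and under the alternatives, with dashed lines at a fold of 1.5. Rras2 stays above 0 and Tns3 below it in every setting, and scaling on the spike-in controls moves all 9 genes upwards.

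The order of the 8 changes held at its ends under every alternative processing. Rras2 lay between 0.48 and 0.74 and Tns3 between -0.54 and -0.30, so that neither changed sign, whichever of the 4 arrays was left out. Scaling on the 8 spike-in probes moved the median of all genes by 0.19, and relative to that shift the 8 genes lay where they did before. With it Rras2 passed a fold of 1.5 (log2 change 0.74) but not the adjusted p, and Tns3 came to -0.30 and no longer had an unadjusted p under 0.05.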

How the data were processed

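The authors hybridised Cy3-labelled cRNA to SurePrint G3 rat arrays and deposited the spot intensity of each array as Agilent Feature Extraction 10.7.3.1 gave it (version per the labels), corrected for background but not normalised between arrays. Groups and replicate numbers came from the sample labels. From these intensities, log2 values minus each array's 75th percentile (564.9 to 624.1) were computed, control and outlier spots were left out, spots of a probe were averaged, and siGPR17 was tested against siNEG with limma 3.58.1 (R 4.3.3; lmFit, eBayes, Benjamini-Hochberg adjustment). Linear signals are these values times 1 common factor. Probes were named through their transcript accessions in a RefSeq table of GRCr8, used for names only, and 21093 of 45598 had a symbol. The brightest tested probe stood for a gene, and lists were described by their extremes. Other list genes named were chosen after their values were seen, as the members and lists were with earlier results of these data known. With 3 splits of 2 against 2, an exact two-sided permutation test cannot go below p = 0.333, so none was run. Results of some genes are not reported here. The code was tested on simulated data. The number of arrays limits the precision. Alternatives were other background corrections, scalings, filters and tests, and leaving out arrays.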

Additional observations from a re-analysis of the deposited data

How the results depend on the processing

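The 8 premyelinating genes past both thresholds were 0 under all 14 alternatives, and 106 of 112 gene values kept direction and call. The 6 that turned sign were small: Bmp4 was 0.14 with spike-in scaling and ran from -0.22 (without siNEG replicate 1) to 0.11 (without siNEG replicate 2) when arrays were left out, Fyn from -0.015 to 0.076, and Nfasc from -0.029 to 0.20, with -0.044 for the mean of its probes. Leaving out arrays gave 0.48 to 0.60 for Rras2 and -0.52 to -0.47 for Tns3. The median over the 8 genes was 0.27 with spike-in scaling, a shift shared with all genes. Among the other newly formed OL genes, 1 of 14 (Cnksr3) passed after normexp and 2 (Cnksr3 and Neu4) with limma's trend and robust options, where 0.962% and 1.58% of all genes passed (112 and 184). Gpr17 passed in both (adjusted p = 0.0222 and 0.0151). The methods' t-test gave an unadjusted p under 0.05 for 2 of the 8 genes (1674 of 11642 genes in all) and for 0 after Benjamini-Hochberg adjustment. Arrays with the same number did not deviate together (r = -0.066 over 27996 probes, across probes, which are not replicates), so the numbers were not taken as pairs; a replicate block left Rras2 at 0.54 and 0 of the 8 genes past the thresholds, and 1275 genes instead of 1882 had an unadjusted p under 0.05. The files gave no mean spot signal to these steps, and normexp used the spot median. Enpp6 and the dimmer Nfasc probe lay nearest to background.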
